A study of Mus musculus with 10 samples.

Results

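The epithelial-mesenchymal transition (EMT) genes were examined as 10 members fixed by name: the transcription factors Snai1, Snai2, Twist1, Twist2, Zeb1 and Zeb2, the epithelial adhesion gene Cdh1, and the mesenchymal genes Cdh2, Vim and Fn1. Each gene body was taken with 50 kb on each side (mm10), and every peak summit of 8 ChIP-seq peak lists that fell in these windows was placed at the start, in the body or in the flank. All 10 were found among the 21938 protein-coding genes of GENCODE vM21, which served as the background throughout.

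The cells were AB17, immortalized primary hepatocytes of a C57BL/6 mouse with Arid1a fl/fl alleles. They carry SV40 large T antigen and an activated H-Ras, so wildtype and knockout cells share both oncogenes. Infection with the control adenovirus Ad-GFP gave the WT cells (Arid1a fl/fl), and infection with Ad-Cre gave the KO cells (Arid1a-/-). Both genotypes were profiled for H3K9me3 and H3K27me3, but the WT alone for Arid1a, Brg1, Ctcf and Rad21. A single line was used and each group was 1 library, so no difference has a replicate check, no p-value is given, and every interval covers counting error alone. Arid1a was not profiled in KO cells, and its deletion cannot be read from the lists.

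EMT is the programme by which epithelial cells loosen their junctions and gain a migratory, mesenchymal state. The zinc finger proteins Snai1, Snai2, Zeb1 and Zeb2 and the basic helix-loop-helix proteins Twist1 and Twist2 drive it, largely by repressing Cdh1 through E-box sequences, and the miR-200 microRNAs hold Zeb1 and Zeb2 in check. H3K27me3 is laid down by Polycomb and H3K9me3 marks heterochromatin. Arid1a and the ATPase Brg1 belong to the SWI/SNF nucleosome remodelling complex, whereas Ctcf and the cohesin subunit Rad21 form loop anchors.

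Reference sequences are given because strong Ctcf summits stood at several member genes and because E-boxes are the motif of the Snai and Zeb factors. Promoters from 250 bases before to 50 after a RefSeq transcript start (GRCm38) were matched for 5 of the 10 members, in 8 windows. The 250 upstream bases are given, 5′ to 3′, for Snai1 (chr2:167537945-167538194, plus strand) and Twist1 (chr12:33957421-33957670, plus strand), whose windows held a Ctcf summit, with any E-box letters (CAGGTG or CACCTG, the same motif on either strand) in capitals.
Snai1 promoter: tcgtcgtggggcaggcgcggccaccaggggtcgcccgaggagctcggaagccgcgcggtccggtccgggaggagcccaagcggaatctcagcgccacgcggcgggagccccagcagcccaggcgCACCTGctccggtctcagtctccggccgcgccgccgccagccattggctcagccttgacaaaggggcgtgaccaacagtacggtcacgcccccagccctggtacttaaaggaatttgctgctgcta
Twist1 promoter: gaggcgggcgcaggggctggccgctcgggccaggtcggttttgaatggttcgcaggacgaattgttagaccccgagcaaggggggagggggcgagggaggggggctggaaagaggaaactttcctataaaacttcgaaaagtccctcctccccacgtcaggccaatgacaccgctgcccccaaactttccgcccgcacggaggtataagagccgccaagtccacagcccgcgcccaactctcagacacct

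Snai1 held 1 E-box, at −126, and the windows of Twist1, Twist2, Zeb2 and Vim held 0. Of all 32851 RefSeq promoters, 20.2% held the motif. The Snai1, Twist1 and Twist2 windows of 300 bases were rich in CpG, with 34, 27 and 25 CpG dinucleotides against a median of 7 over all promoters, and the Vim window had 11.

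The genomic sequence 50 bases either side of the strongest Ctcf summit is given on the plus strand for Snai1 (chr2:167537910-167538010), Vim (chr2:13597143-13597243) and Twist2 (chr1:91874787-91874887). All 3 summits were annotated as intergenic. Capitals mark matches on either strand to a shortened Ctcf core, which reads CC, any 3 bases, AG, any 2 bases and G, and which was chosen after the sequences had been seen. In the Twist2 window the capitals also spell an E-box.
Snai1 Ctcf summit: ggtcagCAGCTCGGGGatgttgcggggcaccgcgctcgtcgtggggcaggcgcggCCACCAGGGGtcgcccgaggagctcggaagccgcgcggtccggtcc
Vim Ctcf summit: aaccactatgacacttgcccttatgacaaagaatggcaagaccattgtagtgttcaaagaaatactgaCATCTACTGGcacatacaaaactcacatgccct
Twist2 Ctcf summit: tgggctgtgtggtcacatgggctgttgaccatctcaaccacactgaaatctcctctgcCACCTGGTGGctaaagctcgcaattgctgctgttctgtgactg

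The Snai1 window held 2 such matches, the Vim and Twist2 windows 1 each. Summit sequences were given only for members with a matched promoter. Among members without one, the strongest Ctcf summit of Cdh1 (−log10 q-value 77.7) had 1 match and that of Snai2 (50.9) had 0. The −log10 q-value was 20 or more at 16 member summits, of which 13 had the shortened core within 50 bases. The share was 66.4% over all Ctcf summits of that strength. It was 16.1% at positions moved by 2000 bases from Ctcf summits of any strength. A longer core, with GGC in place of the last G, was found at 8 of the 16, against 41.9% of all strong Ctcf summits and 1.93% of moved positions. Among promoter windows of 300 bases, which are longer than the windows around summits, 56.0% held the shortened and 8.61% the longer core. A match is a match of letters and does not show binding.

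Summits were called in numbers between 70408 (Arid1a) and 143835 (WT H3K9me3) per list, and most were weak. The strength used here is the −log10 of the q-value, the estimated false discovery rate of a peak, and every listed q-value was 0.05 or less. Median strength lay between 2.47 (KO H3K9me3) and 4.02 (Ctcf). Because strength grows with read depth, which is unknown, percentile ranks were taken only within a list. Fixed strength limits were nevertheless applied alike to the WT and KO lists, without adjustment for depth. Counts past such a limit, and WT and KO strengths given side by side, may therefore differ through depth alone. The KO list held 0.785 times as many H3K27me3 and 0.938 times as many H3K9me3 summits as the WT list. A window without a summit shows only that none was called there.

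**Figure D1:**
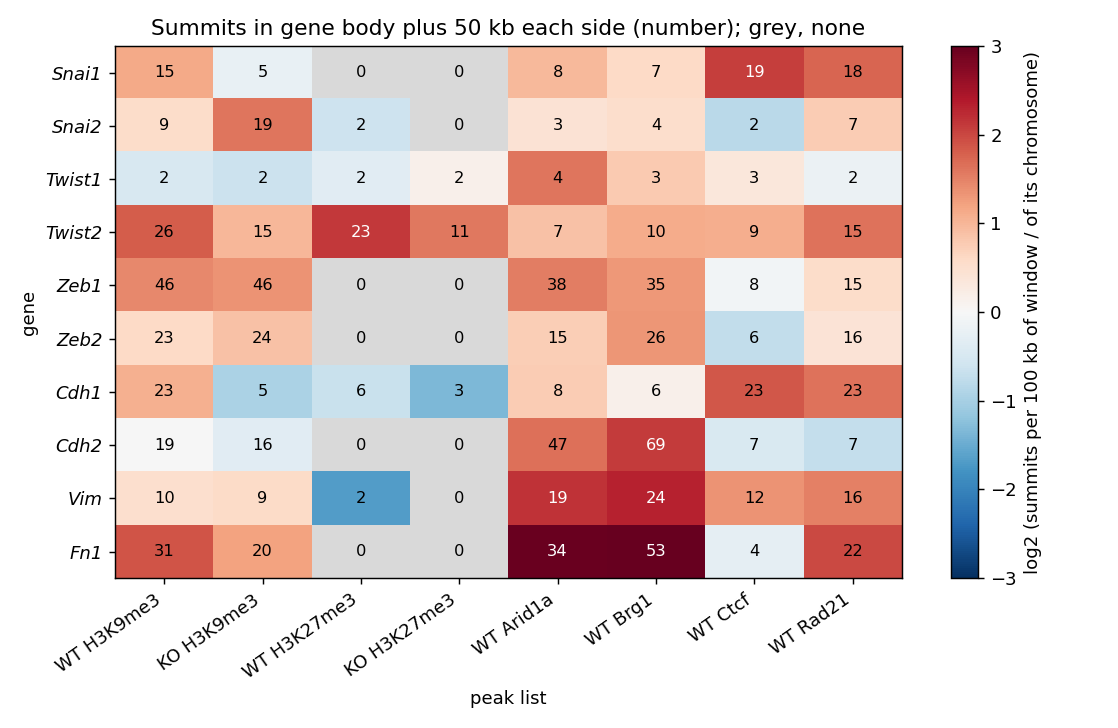
Number of summits in the body plus 50 kb of each of the 10 EMT genes (rows) in each of the 8 peak lists (columns, 1 library each). Colour gives the log2 ratio of summits per 100 kb of the window to summits per 100 kb of its own chromosome, and grey cells have no summit; Fn1, Cdh2 and Vim are darkest for Brg1, Snai1 and Cdh1 for Ctcf, and 5 genes are grey in both H3K27me3 columns.

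To address where the transcription factors stood, Snai1 and Snai2 were examined first. Snai1 (chr2:167538195-167542814, plus strand), which encodes Snail, started beside the strongest Ctcf summit of all member windows. It lay at −235 bp from the start with a strength of 91.9, above 99.5% of the Ctcf list, and a Rad21 summit of strength 68.7 lay 21 bp away. The Snai1 window held 19 Ctcf and 18 Rad21 summits, or 18.2 and 17.2 per 100 kb, more than 93.8% and 90.3% of coding genes. It held 8 Arid1a and 7 Brg1 summits, of which 1 each lay within 2 kb of the start, at +507 and +1484 bp with strengths of 2.56 and 3.86. H3K27me3 had 0 summits in either genotype. H3K9me3 had 15 in WT and 5 in KO, with none at the start or in the body. The Rnf114 gene shares the upstream flank and held the strongest WT H3K9me3 summit of the window, at −34479 bp.

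Snai2 (chr16:14705852-14709385, plus strand), which encodes Slug, also started next to strong Ctcf and Rad21 summits. The Ctcf list held 2 summits in the whole window, at −4185 and −313 bp with strengths of 50.9 and 49.0, and Rad21 summits lay 125 and 12 bp from them. Rad21 had 7 summits, Arid1a 3 and Brg1 4. Of the Arid1a summits, 2 were at the start, the stronger at −1524 bp with a strength of 4.91. H3K27me3 was sparse, with 2 summits in WT and 0 in KO, the WT summits lying at −49710 and −45451 bp. H3K9me3 went from 9 summits in WT to 19 in KO, the only member with more KO than WT summits apart from Zeb2.

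Twist1 (chr12:33957671-33959829, plus strand) stood in the sparsest window. H3K9me3 had 2 summits in each genotype, H3K27me3 2 in each, Arid1a 4, Brg1 3, Ctcf 3 and Rad21 2. All the H3K27me3 summits lay upstream of the start. The strongest of each genotype fell in the neighbouring gene Ferd3l, at −28674 bp in WT and −28541 bp in KO, 133 bp apart. At the Twist1 start the Rad21 summit at +315 bp had a strength of 10.6, and the strongest Arid1a and Brg1 summits had strengths of 2.70 and 3.16.

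Twist2 (chr1:91801461-91848028, plus strand), the paralog of Twist1, was the member with the most H3K27me3. The window held 23 summits in WT and 11 in KO, or 15.7 and 7.51 per 100 kb, more than 84.8% and 75.6% of coding genes. In WT, 14 lay upstream, 3 at the start and 6 downstream, and in KO 9 lay upstream, 0 at the start and 2 downstream. The WT start summits were at −954, +105 and +1529 bp, with strengths of 3.44, 2.42 and 2.22, and the nearest KO summits lay 26728 to 29211 bp from them. Upstream, the strongest KO summit at −30522 bp lay 415 bp from a WT summit. H3K9me3 had 26 summits in WT and 15 in KO. Twist2 had an Arid1a summit at the start, at −768 bp with a strength of 2.70, but no Brg1 summit there. The window as a whole held 7 Arid1a, 10 Brg1, 9 Ctcf and 15 Rad21 summits, among them a Ctcf summit of strength 55.5 at +73376 bp with Rad21 (45.8) 59 bp away.

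Zeb1 (chr18:5591860-5775467, plus strand) and Zeb2 (chr2:44983632-45117395, minus strand) are long genes and had no H3K27me3 summit in either genotype. Zeb1 held 46 H3K9me3 summits in WT and 46 in KO. Of these, 29 in WT and 33 in KO lay in the body. The strongest of each genotype, at +67914 bp in WT and +85575 bp in KO, lay in introns, 267 and 287 bp from a summit of the other genotype. Zeb2 held 23 in WT and 24 in KO. Arid1a and Brg1 had 38 and 35 summits at Zeb1, and 15 and 26 at Zeb2. Ctcf had 8 and 6, and Rad21 15 and 16. The Zeb1 start had Arid1a and Brg1 summits of strength up to 3.12 and 4.49, whereas Zeb2 was the member without an Arid1a summit at the start. The nearest Arid1a summit to its Brg1 start summits was 28051 bp away.

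Cdh1 (chr8:106603351-106670246, plus strand) encodes E-cadherin, the adhesion molecule of epithelial junctions, and was the sole member with H3K27me3 at its start in both genotypes. The WT summit at +328 bp had a strength of 11.8, above 98.3% of the WT list, and the KO summit at +259 bp had a strength of 4.70, above 83.9% of the KO list. They lay 69 bp apart in an intron. The window held 6 summits in WT and 3 in KO. A WT H3K9me3 summit at +378 bp, with a strength of 7.81 above 99.3% of its list, lay 50 bp from the WT H3K27me3 summit. The H3K9me3 window count was 23 in WT and 5 in KO, the lowest KO to WT ratio among the members for this mark, and no KO H3K9me3 summit in the window reached a strength of 3 against 7 in WT.

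SWI/SNF summits at the Cdh1 start were weak or missing. Arid1a had a summit at +374 bp with a strength of 2.51, under the list median of 2.70, and Brg1 had none within 2 kb. The window held 8 Arid1a and 6 Brg1 summits. The Ctcf and Rad21 lists held 23 summits each, 3.61 and 3.10 times the density of chromosome 8. The Ctcf start summit at +182 bp had a strength of 3.06, and the strong ones stood away from the start, at −42091, +44215 and +114891 bp with strengths of 77.7, 60.6 and 71.4. A Rad21 summit lay within 67 bp of each. The window also contains the end of Cdh3, which encodes P-cadherin, and part of Tango6, so the flanking summits are not those of Cdh1 alone.

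The mesenchymal members differed from Cdh1 in the SWI/SNF lists. Cdh2 (chr18:16588877-16809246, minus strand) encodes N-cadherin, Vim (chr2:13573927-13582826, plus strand) the intermediate filament vimentin, and Fn1 (chr1:71585520-71653200, minus strand) the matrix protein fibronectin. Brg1 had 69 summits at Cdh2, 24 at Vim and 53 at Fn1, or 21.5, 22.0 and 31.6 per 100 kb, above 99.0%, 99.1% and 99.9% of coding genes. Arid1a had 47, 19 and 34, above 96.6%, 98.4% and 99.3% of coding genes. For comparison, Cdh1 had 3.60 Brg1 and 4.79 Arid1a summits per 100 kb, above 46.4% and 60.6% of coding genes.

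The strongest Brg1 summit of each mesenchymal window was at the start. At Fn1 it lay at +88 bp with a strength of 9.27, above 99.8% of the list, 102 bp from an Arid1a summit of strength 6.44 at −14 bp. At Vim it lay at −392 bp with a strength of 8.10, 29 bp from an Arid1a summit of 4.80. At Cdh2 it lay at +578 bp with a strength of 5.96, tied with a summit at −6733 bp, and 27 bp from an Arid1a summit of 7.03. H3K27me3 was listed nowhere in the Cdh2 and Fn1 windows, and at Vim there were 2 summits in WT, at +45061 and +58742 bp, and 0 in KO. H3K9me3 had 19 summits in WT and 16 in KO at Cdh2, 10 and 9 at Vim, and 31 and 20 at Fn1.

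Ctcf was unevenly placed among these genes. Vim had 12 Ctcf and 16 Rad21 summits, with strong Ctcf summits at +1786 bp (43.7) and +23266 bp (46.2). Cdh2 had 7 of each. Fn1 had 4 Ctcf but 22 Rad21 summits, of which 4 had a Ctcf summit within 1 kb. The strongest Rad21 summit there, at +84 bp with a strength of 9.66, stood beside the Brg1 start summit at +88 bp, and the Ctcf summit 113 bp away had a strength of 2.14. Summits within 2 kb upstream of the Fn1 start fall in the annotated span of Apol7d.

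**Figure D2:**
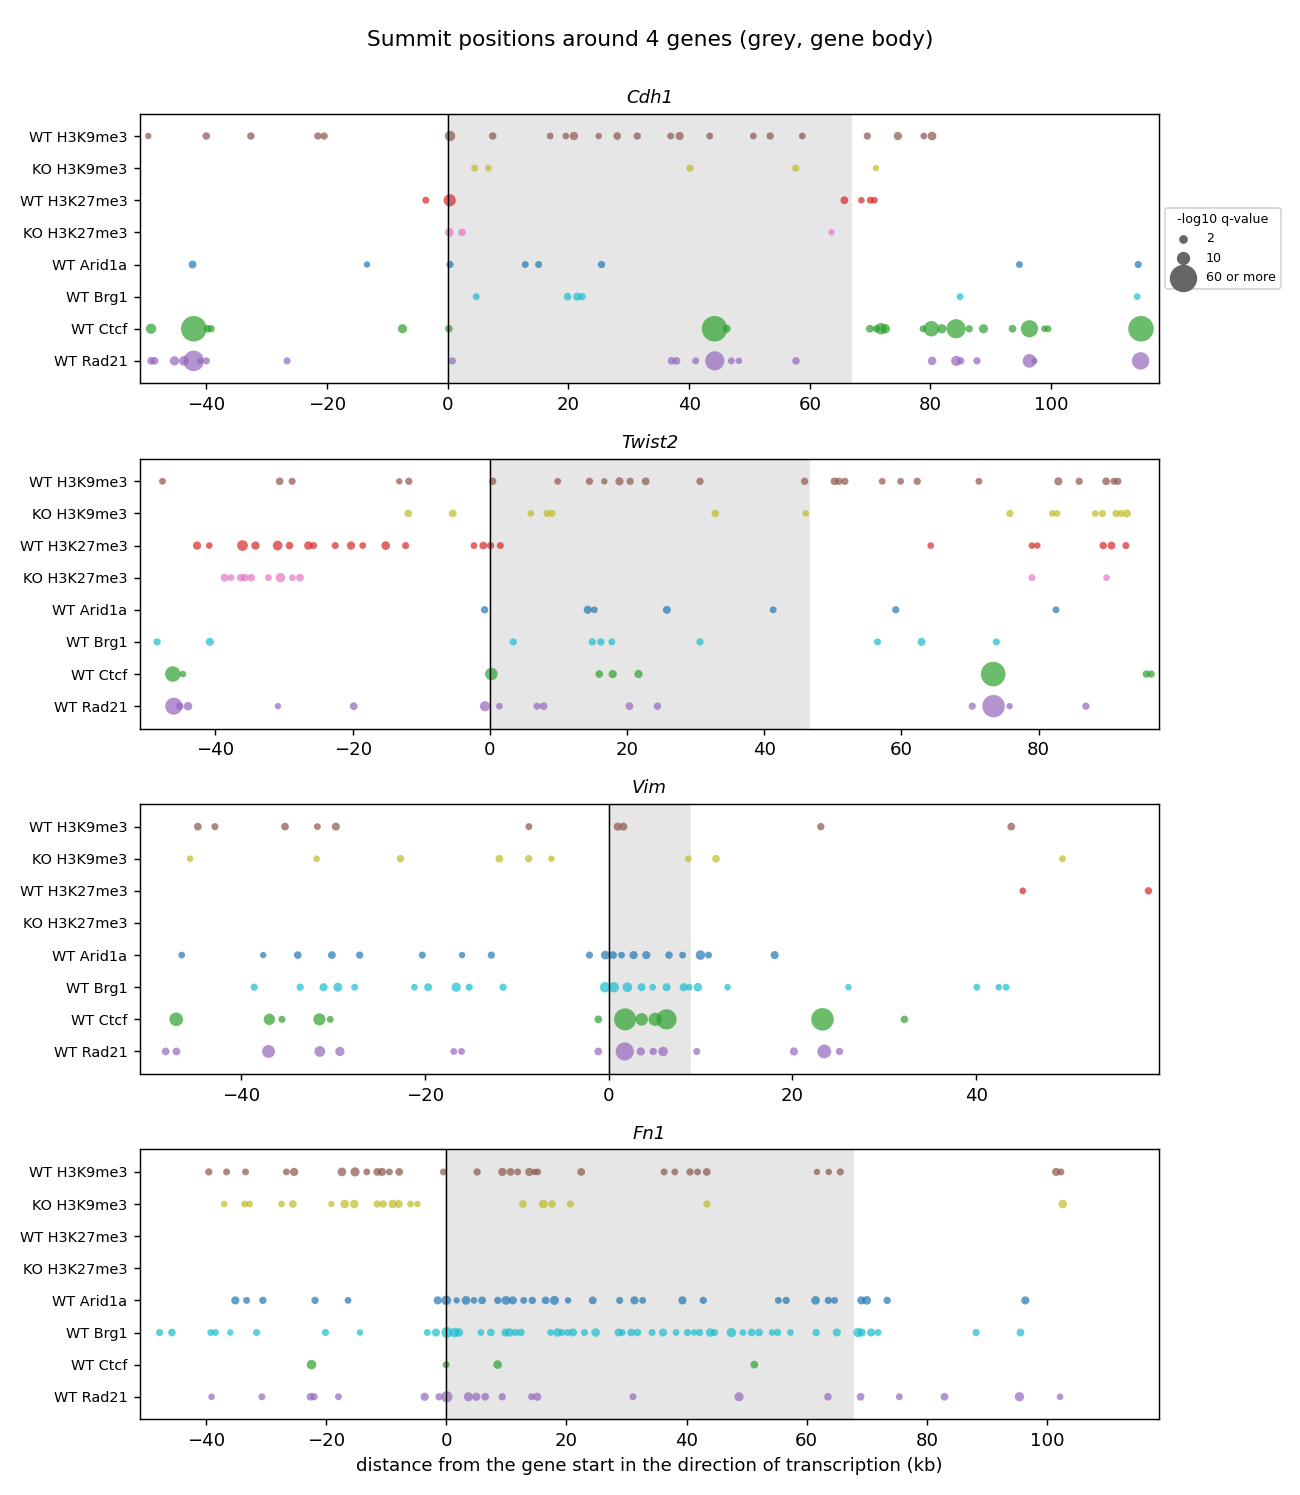
Summits around Cdh1, Twist2, Vim and Fn1 by distance from the gene start in kb (x axis, direction of transcription) in each of the 8 lists (rows), with dot area growing with −log10 q up to 60 and the gene body in grey. Brg1 and Arid1a dots run along the Vim and Fn1 bodies, Cdh1 has large Ctcf and Rad21 dots away from its start, and the 3 WT H3K27me3 dots at the Twist2 start have no KO counterpart.

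To examine the genotype difference over all members, summits were summed. The 10 windows held 35 H3K27me3 summits in WT and 16 in KO, a ratio of 0.457 (95% exact binomial interval 0.236 to 0.848), and 204 and 161 H3K9me3 summits, a ratio of 0.789 (0.638 to 0.975). Summits of a domain are not independent, and the intervals leave this out. The ratios of the whole lists were 0.785 and 0.938, both within these intervals. At a strength of at least 5 the direction for H3K9me3 turned, with 3 summits in WT and 5 in KO, a ratio of 1.67. This limit was the same for both lists and was not adjusted for read depth. Twist2 alone supplied 23 of the 35 and 11 of the 16 H3K27me3 summits.

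A gene was counted as lower or higher when its KO to WT ratio, with 1 added to each count, was at most 0.5 or at least 2 and the genotype with more held at least 5 summits. For H3K27me3 only Twist2 and Cdh1 had enough summits, and Twist2 was lower, at a ratio of exactly 0.5 and in a background where 22.2% of 10646 coding genes were lower and 1.84% higher. The interval of its unadjusted ratio of 0.478 ran from 0.210 to 1.02. Once the ratio was divided by the whole-list ratio, Twist2 was no longer counted, and the coding genes split into 1159 lower and 361 higher in place of 2363 and 196. Cdh1 had a ratio of 0.571. No H3K27me3 summit in either genotype was found for 5 of the 10 members, Snai1, Zeb1, Zeb2, Cdh2 and Fn1, compared with 29.7% of coding genes.

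For H3K9me3, 9 members had enough summits. Cdh1 and Snai1 were lower, with ratios of 0.25 and 0.375, in a background of 40.6% of 17949 genes, and Snai2 was higher, with a ratio of 2 in a background of 8.86%. The interval of the unadjusted ratio was 0.0646 to 0.585 at Cdh1, 0.0948 to 0.965 at Snai1 and 0.910 to 5.298 at Snai2. The share of members counted lower, 2 of 9, was below the background, and the median ratio of the 9 was 0.85 against 0.625 over all genes tested. Of the other members, Twist2 and Fn1 had ratios of 0.593 and 0.656, and Zeb1, Zeb2, Cdh2 and Vim lay between 0.85 and 1.04.

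**Figure D3:**
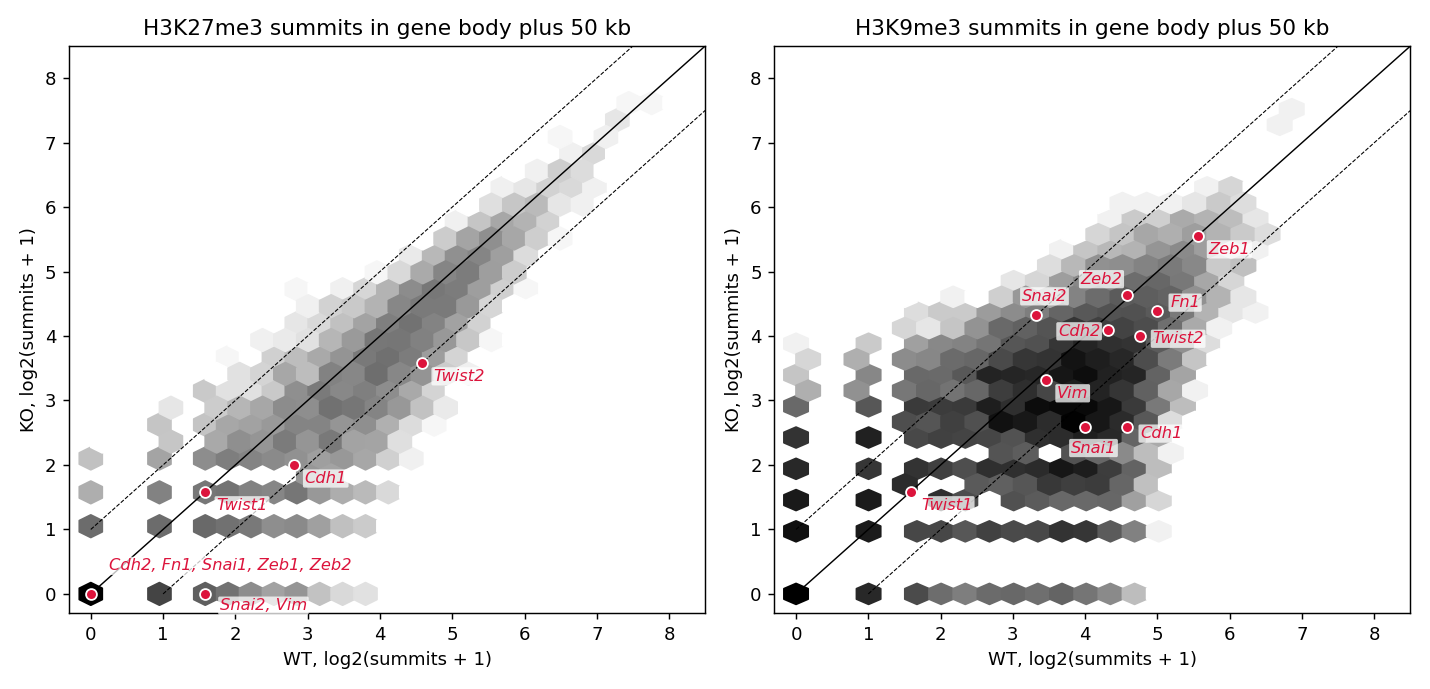
H3K27me3 (left) and H3K9me3 (right) summits in the body plus 50 kb, WT against KO, on a log2(summits + 1) scale. Grey hexagons show 21938 protein-coding genes (darker, more genes), red points the 10 EMT genes, the solid line equal counts and the dashed lines 2-fold differences; for H3K27me3 Twist2 sits on the lower dashed line, and for H3K9me3 Snai1 and Cdh1 sit below that line and Snai2 on the upper one.

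Positions were compared next. Of the 35 WT H3K27me3 summits in the member windows, 10 had a KO summit within 1 kb (28.6%, 95% Wilson interval 16.3 to 45.1%), against 54.4% of the whole WT list. Among WT summits with a strength of at least 3 the member share was 53.8% (7 of 13). Twist2 supplied 10 of these 13, and the whole-list share at that strength was not computed. Of the 16 KO summits, 9 had a WT summit (56.3%, 33.2 to 76.9%), against 68.3%. For H3K9me3, 32.8% of WT summits (67 of 204, interval 26.8 to 39.6%) had a KO summit, near the 31.1% of the whole list, and 43.5% of KO summits (70 of 161, 36.1 to 51.2%) had a WT summit, against 33.3%. A KO partner was found for 23 of the 46 WT H3K9me3 summits at Zeb1 and 14 of the 31 at Fn1, and for 1 of the 23 at Cdh1.

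At gene starts, taken as 2 kb on each side, the H3K9me3 lists of the genotypes differed. A WT summit was found at the start of 7 of the 10 members, all but Snai1, Snai2 and Zeb2, and a KO summit at none, compared with 38.7% and 14.0% of coding genes. The nearest KO summits to the WT start summits lay 4057 to 10752 bp away. H3K9me3 was at the start in WT only for 31.4% of coding genes, in KO only for 6.69% and in both for 7.30%. The WT start summits were strongest at Cdh1 (7.81), and those of Zeb1, Vim, Twist1, Cdh2, Twist2 and Fn1 had strengths of up to 4.03, 3.90, 3.31, 2.64, 2.64 and 2.07. At a strength of at least 3, the WT count was 4 members. Counting every annotated transcript start of a gene, 3 members had a KO summit.

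H3K27me3 was found at the start of 2 members in WT, Twist2 and Cdh1, and of 1 in KO, Cdh1, compared with 23.4% and 19.8% of coding genes. Twist2 thus belonged to the 6.14% of genes with the mark at the start in WT only and Cdh1 to the 17.2% with it in both. No member was among the 2.58% with it in KO only.

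The WT factors covered nearly all member starts. Arid1a was listed at 9 starts (35.2% of coding genes), Brg1 at 8 (39.6%), Ctcf at 10 (42.5%) and Rad21 at 10 (50.6%). Arid1a and Brg1 together were at 7 starts (26.5%), and the same 7 had all 4 factors (16.6%). The exceptions were Zeb2 without Arid1a, and Twist2 and Cdh1 without Brg1. These exceptions depended on the 2 kb window and the outermost start. Within 5 kb Brg1 was at 10 starts, and over every transcript start Arid1a was at 10. Twist2 and Cdh1 were also the members with WT H3K27me3 at the start. Of the 7, 5 also had a WT H3K9me3 summit (11.3%). At a strength of at least 3 the Arid1a count was 5, namely Snai2, Zeb1, Cdh2, Vim and Fn1.

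**Figure D4:**
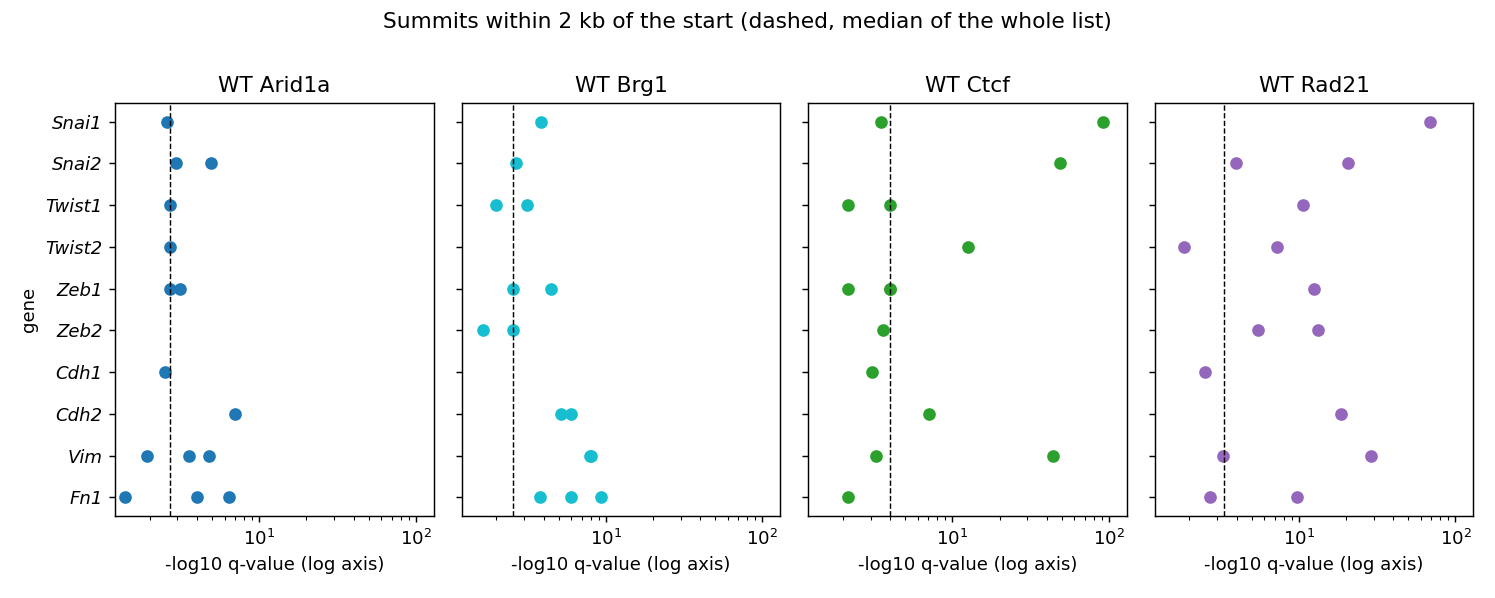
Strength (−log10 q-value, log axis) of every summit within 2 kb of the start of each EMT gene in the WT Arid1a, Brg1, Ctcf and Rad21 lists, with the median of the whole list dashed. Snai1 and Snai2 have the strongest Ctcf start summits (91.9 and 49.0), Cdh2, Vim and Fn1 the strongest Brg1 ones, and Brg1 is missing at Twist2 and Cdh1.

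Over the windows, the median of the members was 7.03 Arid1a and 8.97 Brg1 summits per 100 kb, against 3.45 and 4.005 for coding genes, and 2.88 Ctcf and 8.54 Rad21 summits, against 6.45 and 6.71. Of the 237 Brg1 summits, 39.2% had an Arid1a summit within 1 kb (93, interval 33.2 to 45.6%), against 27.5% of the whole Brg1 list, and 44.3% of the 183 Arid1a summits had a Brg1 summit (81, 37.3 to 51.5%), against 31.1%. Cdh2, Vim and Fn1 supplied most of both. Brg1 summits with an Arid1a summit were 21 of 69 at Cdh2, 18 of 24 at Vim and 29 of 53 at Fn1. In the other windows they were 12 of 35 (Zeb1), 4 of 26 (Zeb2), 2 of 10 (Twist2), 3 of 7 (Snai1), 1 of 6 (Cdh1), 1 of 4 (Snai2) and 2 of 3 (Twist1). Of the 141 Rad21 summits, 40.4% had a Ctcf summit within 1 kb (57, 32.7 to 48.7%), against 52.0%, and of the 93 Ctcf summits 58.1% had a Rad21 summit, against 55.7%. Body summits made up 59.6% of the Arid1a and 58.2% of the Brg1 summits, but 22.6% of the Ctcf and 2.86% of the WT H3K27me3 summits. The share expected from body length was not computed. Twist2 supplied 23 of the 35 WT H3K27me3 summits, with 0 placed in the body, and Zeb1, Zeb2, Cdh2 and Fn1 had no such summit.

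To place the members among related genes, lists of the same pathway were counted. The epithelial list held 18 genes of junctions, keratins and epithelial regulators. Of these, 10 had H3K27me3 at the start in WT (23.4% of coding genes) and 9 in KO (19.8%), 9 of them in both (17.2%). Arid1a was at the start of 6 (35.2% of coding genes) and Brg1 at the start of 5 (39.6%). Epcam, an epithelial adhesion molecule, had H3K27me3 start summits of strength 14.3 in WT and 12.6 in KO, Tjp1, a tight junction scaffold, 9.25 and 5.52, and Ovol1, an epithelial transcription factor, 35.2 and 21.4. Their window counts were 6 and 2, 20 and 7, and 8 and 3, and with Krt19, a simple epithelial keratin (21 and 6), they were the 4 of 13 genes with enough summits that were counted lower in KO, in a background of 22.2%. For H3K9me3, 10 of 17 were lower (background 40.6%) and 0 higher. A KO H3K9me3 summit was at the start of 8 of 18 (14.0% of coding genes) and a WT summit at the start of 10 (38.7%).

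The mesenchymal list held 16 matrix and cytoskeleton genes. H3K27me3 was at the start of 3 in WT (23.4% of coding genes) and 2 in KO (19.8%), Arid1a at 9 (35.2%) and Brg1 at 10 (39.6%). A KO H3K9me3 start summit was at 0 (14.0%), against 10 in WT (38.7%). Mmp2, a matrix metalloproteinase, had 16 H3K27me3 summits in WT and 5 in KO, Itga5, the fibronectin receptor subunit, 5 and 0, and Postn, which encodes periostin, 5 and 2, and these 3 of 6 genes with enough summits were counted lower, in a background of 22.2%. Acta2, smooth muscle actin, had no H3K27me3 summit, and start summits of strength 4.22 for Arid1a and 5.19 for Brg1. For H3K9me3, 11 of 15 were lower (background 40.6%) and 0 higher.

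The 9 TGF-beta signalling genes encode an inducer of EMT with its receptors and Smads. Brg1 was at the start of 9 (39.6% of coding genes), Arid1a of 7 (35.2%), and H3K27me3 of 1 in WT (23.4%) and 0 in KO (19.8%). For H3K27me3 0 of 3 genes were lower (background 22.2%). For H3K9me3 4 of 9 were, close to the background of 40.6%, and these were Tgfb3 (12 and 2), Smad3 (45 and 8), Smad4 (24 and 11) and Smad7 (30 and 14). Of 6 other EMT transcription factors, 4 had H3K27me3 at the start in WT (23.4% of coding genes) and 1 in KO (19.8%). The one in both was Foxc2, a forkhead factor, with strengths of 30.1 and 18.4 and 36 and 28 summits in its window. Prrx1, a homeobox factor, had 2 weak WT start summits and none in KO. The stronger, at 2.29, was the strongest among the listed factors with the mark in WT only. All of these summits were thus under the WT list median of 2.55. Snai3, Tcf3 and Foxc2, 3 of 5 genes with enough summits, were lower for H3K9me3 (background 40.6%), at 15 and 1, 26 and 4, and 18 and 1 summits.

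The miR-200 microRNAs, which target Zeb1 and Zeb2, are encoded at 2 loci. Their mature sequences from RefSeq are given 5′ to 3′ with the seed, bases 2 to 8, in capitals, to show that each locus encodes both seeds.
miR-141-3p: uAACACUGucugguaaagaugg
miR-200a-3p: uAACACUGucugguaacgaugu
miR-200b-3p: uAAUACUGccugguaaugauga
miR-200c-3p: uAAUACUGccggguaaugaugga
miR-429-3p: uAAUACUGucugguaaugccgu

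Mir200a, Mir200b and Mir429 lie on chromosome 4 in overlapping windows, which held 25 H3K27me3 summits in WT and 21 in KO, with a summit within 2 kb of each of the 3 hairpin genes in both genotypes. The annotated start of these genes is that of the hairpin and not of its primary transcript. Mir200c and Mir141 lie on chromosome 6, and their window held 0 in both. Neither Arid1a (35.2% of coding genes) nor Brg1 (39.6%) was at the start of any of the 5. All 5 were lower for H3K9me3 (background 40.6%), at 10 and 1 summits on chromosome 4 and 9 and 2 on chromosome 6, which are 2 loci and not 5 independent ones.

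**Figure D5:**
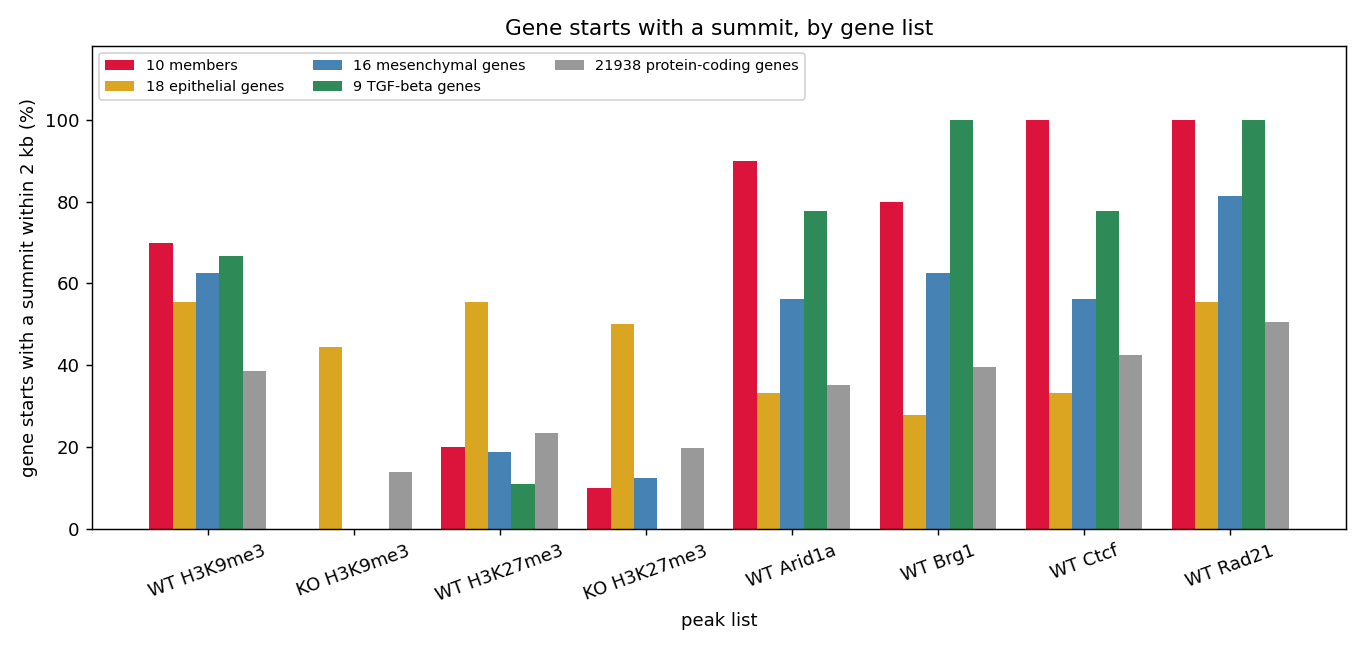
Share of gene starts with a summit within 2 kb (y axis, %) in each of the 8 lists for the 10 EMT genes, the 18 epithelial, 16 mesenchymal and 9 TGF-beta genes, and 21938 protein-coding genes. Among the lists drawn, the epithelial genes stand highest for H3K27me3 (55.6% in WT). The other EMT transcription factors (66.7%) and miR-200 genes (60%) are not drawn. For Arid1a the epithelial genes (33.3%) are close to the coding genes (35.2%). The 10 EMT genes, the mesenchymal genes and the TGF-beta genes have no KO H3K9me3 bar.

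The hepatocyte label was checked against 8 markers. These antibodies do not measure expression. Arid1a was at the start of 2 of the 8 (35.2% of coding genes) and Brg1 at the start of 3 (39.6%). Trf, which encodes transferrin, and the keratin gene Krt8 had both and Ttr, which encodes transthyretin, had Brg1, whereas Alb, which encodes albumin, had neither. Hnf4a, the hepatocyte nuclear receptor, had H3K27me3 at the start in both genotypes, with 41 and 34 summits in its window. Serpina1a had at most 1 summit in any list. The label is used as the submitters gave it. Of 6 markers of other liver cell types, 0 had Arid1a and 2 had Brg1 at the start. Their H3K27me3 counts in WT and KO were uneven, at 58 and 49 for Cdh5, an endothelial cadherin, and 21 and 6 for Krt19. Ptprc held 4 and 0, Des 3 and 2, and Pecam1 and Lyve1 0 in both genotypes. The part of cell type in the member values was not tested.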

How the data were processed

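ChIP-seq peak lists of 8 of the 10 samples of AB17 cells were analysed. The 2 inputs entered through the peak calling only, and their reads were not analysed here. The methods state that the authors used Bowtie2 for alignment to mm10, SAMtools to discard reads of low quality, Picard to discard duplicates, and MACS2 with default settings to call peaks over input. Versions were not given in the sources used here. Each deposited list gave 1-bp summits with a −log10 q-value assigned by the authors' MACS2 run, a unit read from the values because the lists have no header. Calling narrow peaks splits broad domains of H3K9me3 and H3K27me3 into strings of summits, and summit numbers depend on read depth, which is unknown.

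Samples were grouped by the genotype and antibody in their titles, with 1 library per group. Autosomal, X and Y summits were counted with Python 3.11.15, NumPy 2.4.6, pandas 2.3.3 and SciPy 1.17.1 in the gene body plus 50 kb of genes in GENCODE vM21. Those no more than 2 kb from the outermost start counted as start, and summits of different lists within 1 kb as shared. The genotype rule was a 2-fold ratio with 1 added and at least 5 summits. The genotype rule and the 1 kb distance were tested on planted summits, and window counts were checked by direct counting on the real lists. Placement by start, body and flank and the merging of summits were not tested in this way. The members, gene lists and alternatives were chosen with earlier results of these data known. All members were named, and of every other pathway list up to 4 genes, first those past the genotype rule (H3K27me3 before H3K9me3, then list order), then those with the most WT H3K27me3 summits at the start. Alternatives were flanks of 10 kb, start windows of 1 and 5 kb, every transcript start, distances of 500 bp and 2 kb, strengths of at least 3 and 5, equal list sizes, merging within 3 kb and division by the whole-list ratio.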

Additional observations from a re-analysis of the deposited data

How the results depend on the processing

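No paired analysis was possible because each group was 1 library. Of the 66 summary values under the alternatives, 48 stayed within their limits and 18 did not. Limits were the counting-error interval of the main value for ratios and shares, and a fold limit for counts. Among the 100 ratios of single genes 98 stayed, 2 moved and 0 of those counted lower or higher changed direction. The 5 members without H3K27me3 summits had a ratio of 1 throughout and could not move. Intervals of small counts are wide, so a ratio could stay within them and still lose its 2-fold call. At a strength of at least 5 the members held 3 WT and 5 KO H3K9me3 summits, a ratio of 1.67 and the opposite direction to that over all strengths. At a strength of at least 3, members with a start summit numbered 4 for WT H3K9me3 and 5 for Arid1a, and 53.8% of WT H3K27me3 summits (7 of 13) had a KO summit within 1 kb. A start window of 5 kb gave 2 members with KO H3K9me3, and any transcript start gave 3. With 500 bp in place of 1 kb, the shares with a partner were 22.1% for WT and 28.6% for KO H3K9me3, 31.9% for Rad21 near Ctcf and 21.5% for Brg1 near Arid1a. With 2 kb they were 47.1%, 62.7%, 52.5% and 55.7%, and 81.3% for KO H3K27me3. Division by the whole-list ratio left 1159 coding genes and 0 members lower and 361 genes higher for H3K27me3. Within 10 kb of the body, Twist2 held 4 H3K27me3 summits in WT and 0 in KO, a ratio of 0.2, and at a strength of at least 3 Snai2 held 1 and 9 H3K9me3 summits, a ratio of 5. Neither call held in every alternative. Twist2 had ratios of 0.636 at a strength of at least 3 and 0.6 with equal list sizes, off the 2-fold rule, but 0.4 with merging. Snai2 had ratios of 1.5 with merging, off the rule, and 2.22 with equal list sizes. Within 10 kb of the body, Snai2 held 0 and 1 H3K9me3 summits. Snai1 held 1 in WT and 0 in KO there. At a strength of at least 5, Snai1 held 0 in each genotype, and Cdh1 held 1 in WT and 0 in KO. In these settings both fell under the minimum of 5 summits, so their H3K9me3 calls were lost. In the remaining settings the Snai1 and Cdh1 calls stayed past the rule. Causes other than the narrower or wider limits themselves were not tested. With unknown depth, a missing summit cannot be read as a missing mark or factor.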
